A study of Mus musculus with 165 samples.

Results

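*Egr1*, *Egr2* and *Egr3*, which encode zinc finger transcription factors of the early growth response (EGR) family, and *Nab1* and *Nab2*, which encode the NAB corepressors that bind them, were followed over 7 days of myeloid differentiation. These 5 genes were taken by symbol from a table of 36255 genes, and all 5 passed the filter on low values that left 17414 genes for testing. EGR factors are immediate early genes: growth factor and cytokine receptors switch them on within minutes through ERK kinases and the serum response factor SRF, with no need for new protein, and the transcripts are short-lived. They bind GC-rich sites and activate transcription, and among their targets is *Nab2*, whose product in turn binds EGR proteins and represses through the chromatin remodeller CHD4. In myeloid progenitors, Egr1, Egr2 and Nab2 are known to favour the macrophage program and the repressor Gfi1 the neutrophil program.

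The libraries were made from polyA RNA of PUER cells, a mouse line of bone marrow progenitors of genotype Spi1-/- whose PU.1 activity comes from a PU.1 protein fused to the estrogen receptor and is switched on by 4-hydroxytamoxifen (OHT). Undifferentiated cells in IL3 without OHT (3 libraries) were the start of the IL3-OHT course, which received 200 nM OHT in IL3 and leads to macrophages (81 libraries, 27 time points from 1h to 168h). Cells kept for 48 h in GCSF in place of IL3 without OHT (GCSF 0h, 3 libraries) were the start of the GCSF-OHT course, which received 100 nM OHT in GCSF and leads to neutrophils (78 libraries, 27 time points, of which 96h, 112h and 152h had 2 libraries). Since the OHT dose differed between the courses, cytokine and dose cannot be told apart, and no libraries of cells given vehicle in place of OHT were used here. Part of the medium was replaced and OHT added again at 40h, 88h and 136h, cells were detached with trypsin from 32h on, and each time point had a plate of its own, so that a change at a single time point and its plate cannot be told apart.

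Reads on genes ran from 14600246 to 33147945 per library (median 21960878), and values are normalized counts, the reads of a library divided by its size factor. Counting 3 reads as the floor, a normalized count of 1.96 to 5.51 is the lowest that can be told from 0, a limit that covers counting error only. The summed level of 9 neutrophil markers was 734185 to 781341 at GCSF-OHT 168h and 256617 to 289399 at IL3-OHT 168h, against 297459 to 303860 in undifferentiated cells. That of 8 macrophage and monocyte markers was 22636 to 23414, 32241 to 34988 and 31044 to 34028 in the same order. Most of that sum was *Ly6c2* and *Cd14*, whose means were lower at IL3-OHT 168h than in undifferentiated cells (14436 against 22042, and 6392 against 7861), while *Itgam* (7612 against 576), *Ccr2* (1667 against 49.3), *Adgre1* (334 against 8.65), *Mmp12* (82.4 against 5.96) and *Cd68* (3471 against 2226) were higher and *Csf1r* had 4.91 against 8.63. Most of the neutrophil sum at GCSF-OHT 168h was *S100a9*, *S100a8* and *Lcn2* (means 278296, 190483 and 125149). Against undifferentiated cells, these, *Mpo*, *Ltf* and *Ngp* had higher means, and *Elane* (66130 against 108129), *Prtn3* and *Camp* lower ones. At IL3-OHT 168h *Lcn2* (50578 against 14186), *S100a8*, *S100a9* and *Ltf* were higher, and *Elane* (28723), *Mpo*, *Prtn3*, *Camp* and *Ngp* lower. *Ltf* had 210.6 there and 56.5 at GCSF-OHT 168h. Among markers of other cell types, *Hbb-bs*, *Cpa3*, *Fcer1a*, *Pax5* and *Cd3e* had at most 3 reads in every library, but the basophil gene *Mcpt8* reached 378 reads in a library, and *Ms4a2*, *Col1a1*, *Klf1* and *Epor* each reached 59 or more. The summed level of 4 mast cell and basophil markers was 176.6 to 204.6 in undifferentiated cells, 242.6 to 262.8 at GCSF 0h, 47.5 to 60.4 at IL3-OHT 168h and 127.8 to 141.2 at GCSF-OHT 168h, and the part of these cells in the results was not tested. The IL3-OHT 96h and 144h libraries stood apart from their neighbours in time, with 17.5% and 15.3% of all genes changed, and were left out of every comparison that does not name them. In bulk RNA, fewer cells of a type and less RNA per cell cannot be told apart.

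In GRCm38, *Egr1* (ENSMUSG00000038418.7) lies at chr18:34859823-34864984, *Egr2* (ENSMUSG00000037868.15) at chr10:67535475-67542188 and *Egr3* (ENSMUSG00000033730.4) at chr14:70077203-70082614, all on the plus strand, and *Nab1* (ENSMUSG00000002881.14) at chr1:52457294-52500679 and *Nab2* (ENSMUSG00000025402.12) at chr10:127660918-127668568 on the minus strand. Of the 2941 exonic bases of *Nab2*, 1050 are shared with the antisense gene *Gm16229*, 151 with *Nemp1* and 40 with *Stat6*, all on the other strand. Whether strand was used in counting is not given in the sources used here, so reads of these bases cannot be assigned to 1 gene. The mean level of *Stat6* ran from 4465 to 16360 and that of *Nemp1* from 637 to 2196 over the 56 combinations of condition and time point, and their part in the *Nab2* values was not tested.

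RefSeq promoters of GRCm38.p6, from 250 bases before to 50 after a transcript start, were found for *Egr2* (5 entries), *Nab1* (1) and *Nab2* (1). One of *Egr2* and that of *Nab1* are shown, because the first holds the SRF binding element named the CArG box and the second the EGR binding element GCGNGGGCG. Both are printed 5′ to 3′ on the strand of the gene with the matched bases in capitals.

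*Egr2*, chr10:67537619-67537918, plus strand: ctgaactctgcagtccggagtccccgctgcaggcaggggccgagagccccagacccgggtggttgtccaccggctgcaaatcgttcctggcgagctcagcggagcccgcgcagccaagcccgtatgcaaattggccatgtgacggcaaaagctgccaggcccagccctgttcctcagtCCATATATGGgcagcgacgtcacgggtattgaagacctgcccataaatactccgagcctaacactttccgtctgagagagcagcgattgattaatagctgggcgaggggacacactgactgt

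*Nab1*, chr1:52500399-52500698, minus strand: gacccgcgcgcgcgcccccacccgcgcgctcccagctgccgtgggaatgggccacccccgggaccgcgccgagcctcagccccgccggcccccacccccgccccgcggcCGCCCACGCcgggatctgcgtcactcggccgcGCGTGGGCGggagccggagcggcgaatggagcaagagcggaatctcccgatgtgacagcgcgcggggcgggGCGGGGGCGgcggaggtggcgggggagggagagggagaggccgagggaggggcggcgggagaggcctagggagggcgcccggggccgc

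The CArG match of *Egr2*, CCATATATGG, spans positions -72 to -63 from the start, and 1.63% of 32851 promoters of the same length hold such a match on either strand. *Nab1* holds 3 matches of the EGR element, GCGGGGGCG at -38 to -30 and GCGTGGGCG further upstream on its own strand and CGCCCACGC, the same motif on the other strand, upstream of both, while 5.55% of promoters hold at least 1. The core GAGGAA bound by PU.1 lies on the other strand of the *Egr2* window as TTCCTC, at -81 to -76, and in 28.3% of all promoters on either strand. The *Nab2* window held none of the 3 motifs. These are matches of letters and not measured sites.

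The first comparison asked what 48 h of GCSF in place of IL3 did to the 5 genes before OHT. All 5 fell, against 20.7% of all genes tested that were called lower (33.7% in either direction). A gene was called at an adjusted p under 0.05, always limma with Benjamini-Hochberg adjustment over all genes tested, and an absolute log2 fold change over 0.58. These p-values measure the spread between replicate libraries only. *Egr1*, the family member most widely induced by mitogens, had 3007, 2852 and 2972 normalized counts in the 3 undifferentiated libraries and 335, 253 and 207 in the GCSF 0h libraries, an 11.1-fold lower mean (log2 fold change -3.50, standard error 0.18, adjusted p = 8.63e-37). *Egr2*, known in macrophages and in myelinating Schwann cells, went from 145.2, 170 and 146.5 to 12.0, 13.3 and 9.32 (log2 fold change -3.64, standard error 0.22, adjusted p = 1.35e-30). No library of one group reached the range of the other for either gene, and the share of all genes with such a gap was not counted.

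*Egr3*, best known in lymphocytes and muscle spindles, had 816, 691 and 763 in undifferentiated cells and 6.47, 4.43 and 6.52 at GCSF 0h. This log2 difference, -6.81 (standard error 0.57, adjusted p = 1.41e-20), was the 4th of 17414 genes in absolute size. The GCSF 0h values rest on 5 to 7 reads per library. *Nab2* went from 6152, 6074 and 6034 to 912, 849 and 701 (log2 fold change -2.90, standard error 0.12, adjusted p = 3.66e-45). *Nab1* fell least of the 5, from 1861, 2001 and 1978 to 912, 1012 and 1056 (log2 fold change -0.97, standard error 0.07, adjusted p = 1.19e-26). The repressor *Gfi1* moved the other way, from 1034 ± 20.3 to 9116 ± 673 (SD, n = 3), its highest mean of the 56 combinations (log2 fold change 3.14, standard error 0.06, adjusted p = 1.18e-77).

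**Figure D1:**
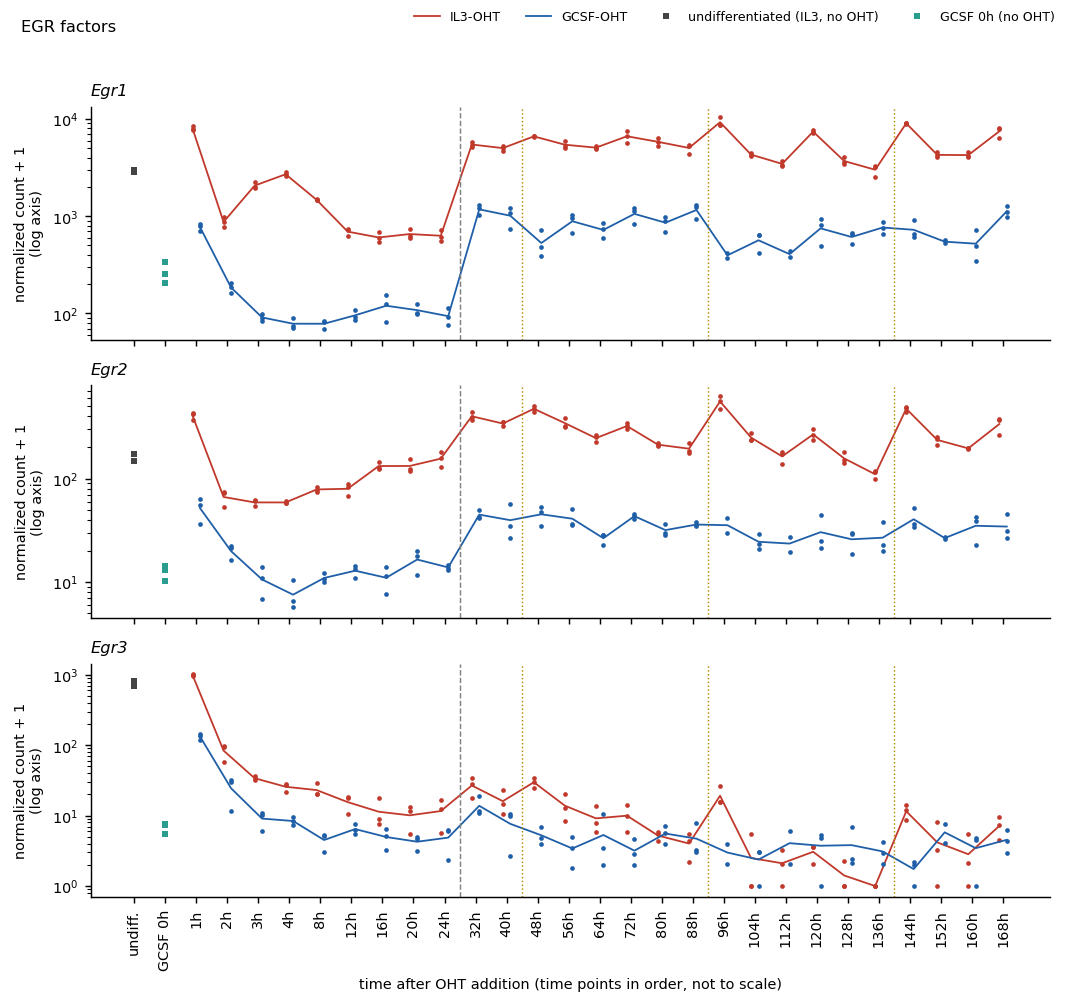
Normalized count plus 1 of Egr1, Egr2 and Egr3 on log axes, by time after OHT addition (time points in order, not to scale). Points are single libraries and lines join the means of IL3-OHT and GCSF-OHT, squares are the undifferentiated and GCSF 0h libraries, the dashed line marks the first time point with trypsin and dotted lines the renewals of medium and OHT. Egr1 reached 7971 at 1h and 5456 at 32h in IL3-OHT with 629 at 24h between them, and the means of Egr3 lay at or below 28.8 from 8h on.

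*Egr1* and *Egr2* were higher after the first hour of OHT in both cytokines. No vehicle libraries were used and each time point had its own plate, so OHT and plate cannot be told apart here. In IL3 2 members were called higher and 1 lower, where 2.81% of all genes were called higher and 1.61% lower (4.42% in either direction). In GCSF 4 were called higher, against 4.01% of all genes (6.05% in either direction). *Egr1* had 7665, 8367 and 7880 at IL3-OHT 1h and 697, 822 and 795 at GCSF-OHT 1h, 2.71 and 2.91 times the mean at the start of each course (log2 fold changes 1.44 and 1.56, standard error 0.18 each, adjusted p = 6.52e-11 and 8.94e-13). *Egr2* had 427, 417 and 367 in IL3 and 35.1, 62.4 and 55.05 in GCSF (log2 fold changes 1.39 and 2.02, standard error 0.22 each, adjusted p = 2.23e-07 and 1.34e-13). Every 1h library lay above every start library for both genes, and the share of all genes with such a gap was not counted.

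For *Egr3* and the NAB genes each course had its own test, and the difference between the courses in the first hour was not tested. *Egr3* had 117.5, 135.3 and 144 in GCSF, 22.8 times its level at GCSF 0h (log2 fold change 4.30, standard error 0.57, adjusted p = 5.27e-10). In IL3 it had 1009, 1013 and 954, which lay above all 3 undifferentiated libraries but did not pass the test (log2 fold change 0.39, standard error 0.57, adjusted p = 0.724). The standard error of *Egr3* is pooled over all combinations in the fit, many of them near the floor. The groups compared here had coefficients of variation of 8.29% (undifferentiated) and 3.3% (IL3-OHT 1h), so this test cannot decide whether *Egr3* rose. *Nab2* fell in IL3 to 3335, 2929 and 3079 (log2 fold change -0.97, standard error 0.12, adjusted p = 4.12e-11) and rose in GCSF to 1418, 1283 and 1231 (log2 fold change 0.68, standard error 0.12, adjusted p = 1.31e-06). *Nab1* was not called in either course, with log2 fold changes of -0.23 in IL3 and 0.32 in GCSF.

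Between 1h and 2h the 3 EGR genes fell in both courses, where 8.83% of genes were called lower in IL3 and 2.3% in GCSF. *Egr1* dropped to 973, 867 and 778 in IL3, a 9.13-fold lower mean (log2 fold change -3.19, standard error 0.18, adjusted p = 1.18e-32), and to 185.3, 204.6 and 162.9 in GCSF (log2 fold change -2.06, standard error 0.18, adjusted p = 8.33e-19). Over the same hour *Egr2* changed on the log2 scale by -2.62 in IL3 (standard error 0.22, adjusted p = 4.92e-20) and by -1.35 in GCSF (standard error 0.22, adjusted p = 2.49e-07). *Egr3* went to 97.8, 94.6 and 56.3 in IL3 (log2 fold change -3.61, standard error 0.57, adjusted p = 4.98e-08) and to 29.4, 30.7 and 10.5 in GCSF (log2 fold change -2.57, standard error 0.57, adjusted p = 1.84e-04). The tests of these single steps were chosen after the data were seen.

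Between 2h and 3h *Nab2* fell in both courses and *Nab1* in IL3. *Nab2* had a mean of 3737 ± 389 (SD, n = 3) at IL3-OHT 2h and 2089 ± 68.95 at 3h (log2 fold change of the step -0.83, standard error 0.12, adjusted p = 2.73e-09), and 1905 ± 111.2 and 1247 ± 68.3 in GCSF (-0.61, standard error 0.12, adjusted p = 2.81e-05). *Nab1* went from 1905 ± 107.5 at IL3-OHT 2h, its highest mean after OHT, to 1226 ± 58.1 at 3h (-0.63, standard error 0.07, adjusted p = 1.51e-14). In GCSF the *Nab1* step, from 1246 ± 33.2 to 1015 ± 62.1, lay under the fold threshold (-0.30, standard error 0.07, adjusted p = 3.52e-04). Genes called lower at this step were 5.33% of all genes in IL3 and 1.66% in GCSF. Set against undifferentiated cells, all members but *Nab1* were lower at IL3-OHT 2h and all but *Egr1* at 3h, and none was higher. Of all genes, 6.02% were called lower and 5.14% higher at the earlier time point, and 10.8% and 7.04% at the later one.

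From 2h on the 3 EGR genes took different paths in IL3. *Egr1* rose again to 2062 ± 181.03 (SD, n = 3) at 3h (log2 fold change of the step 1.24, standard error 0.18, adjusted p = 3.49e-09), had 2699 ± 121.2 at 4h and fell at 8h and at 12h (log2 fold changes -0.87 and -1.09, standard error 0.18 each, adjusted p = 2.15e-05 and 2.19e-07). It then lay between 537 and 740 in the 12 libraries from 12h to 24h. *Egr2* did not rise at 3h (-0.16, standard error 0.22, adjusted p = 0.641), stood at 57.8 ± 3.78 at 3h and 57.8 ± 1.17 at 4h, and rose between 12h and 16h (0.74, standard error 0.22, adjusted p = 0.0110) to 154.7 ± 25.0 at 24h. *Egr3* had 22.1 ± 5.00 at 8h and 10.6 ± 5.53 at 24h, and none of its steps between 2h and 24h was called.

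In GCSF *Egr1* and *Egr2* had their lowest means in this stretch. *Egr1* had means of 77.5 to 119 from 3h to 24h, below the 265 ± 64.6 (SD, n = 3) of GCSF 0h, and was called lower than GCSF 0h at each of the 7 time points of that stretch. *Egr2* had means of 6.54 to 15.5 over the same stretch, against 11.5 ± 2.02 at GCSF 0h, and was called lower at 4h, on 5 to 9 reads per library. The ratio of the *Egr1* means of the 2 courses was largest here, with IL3 levels 34.8 times those of GCSF at 4h and 4.74 times at 2h.

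Between 24h and 32h *Egr1* and *Egr2* rose in both courses at once. This is the step at which trypsin came into use, and its part in the rise cannot be told apart from that of time. *Egr1* went from 555, 725 and 607 to 5201, 5830 and 5338 in IL3, an 8.68-fold higher mean (log2 fold change 3.12, standard error 0.18, adjusted p = 1.38e-30), and from 90.03, 113 and 75.1 to 1203, 1290 and 1031 in GCSF, a 12.7-fold higher mean (log2 fold change 3.66, standard error 0.18, adjusted p = 2.45e-36). *Egr2* went from 179.1, 129.05 and 156 to 397, 435 and 366 in IL3 (log2 fold change 1.37, standard error 0.22, adjusted p = 3.48e-06) and from 12.1, 12.8 and 13.7 to 40.9, 49.2 and 41.4 in GCSF (log2 fold change 1.69, standard error 0.22, adjusted p = 1.06e-08). The libraries of the 2 time points did not overlap for either gene in either course, and the share of all genes with such a gap was not counted.

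At that step 56 of 17414 genes (0.322%) were called higher in IL3 and 27 (0.155%) in GCSF, and 0.356% and 0.172% in either direction. Among the called genes *Egr1* had the 5th largest absolute change in IL3 and the 2nd in GCSF, and *Egr2* the 23rd of 62 and the 8th of 30. The rise did not differ between the courses past the threshold for either gene (difference on the log2 scale, GCSF-OHT minus IL3-OHT, 0.54, standard error 0.25, adjusted p = 0.705 for *Egr1*, and 0.32, standard error 0.31, adjusted p = 0.974 for *Egr2*). *Egr3* went from 4.66, 11.6 and 15.6 to 16.8, 33.1 and 27.5 in IL3, which did not pass (log2 fold change 1.29, standard error 0.57, adjusted p = 0.300) but did with DESeq2 (adjusted p = 0.0222) and at pseudocount 5 (adjusted p = 0.0417). *Nab1* and *Nab2* had log2 fold changes between 0.08 and 0.25 at this step in the 2 courses, none called. Fitted on the libraries of the 2 time points alone, the *Egr2* steps lost their call (adjusted p = 0.0513 in IL3 and 0.0668 in GCSF), and those of *Egr1* kept it.

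From 32h to 72h *Egr1* then lay between 4664 and 7451 in the 18 IL3-OHT libraries (median 5332) and between 393 and 1290 in the GCSF-OHT libraries (median 897). *Egr2* lay between 225 and 499 (median 345) and between 21.6 and 56.2 (median 40.3). An average over 12h to 72h mixes the levels before and after the step. Against the start, the log2 fold change of *Egr1* in IL3 was -2.20 (adjusted p = 8.64e-29) over 12h to 24h and 0.94 (adjusted p = 1.00e-09) over 32h to 72h, and -0.31 (standard error 0.13) over all 10 time points, which was not called and where 29.9% of genes were. In GCSF it was -1.35 (adjusted p = 4.65e-15), 1.71 (adjusted p = 6.35e-22) and 0.49 (standard error 0.13, not called, where 12% of genes were) in the same order. The split at this step was chosen after the data were seen.

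**Figure D2:**
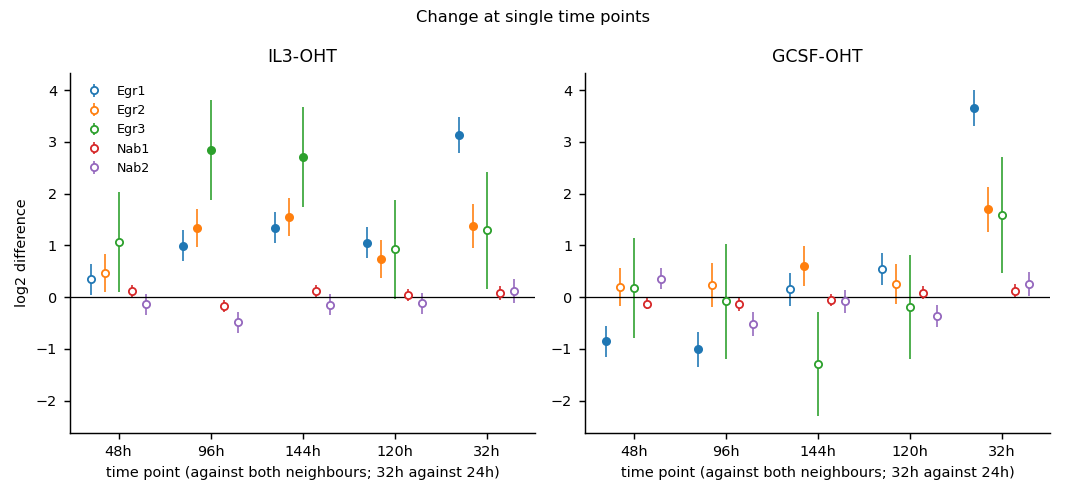
Log2 difference, with 95% intervals, of each of the 5 genes at 48h, 96h, 144h and 120h against the mean of both neighbouring time points, and at 32h against 24h, for IL3-OHT and GCSF-OHT. Filled points passed the test (adjusted p under 0.05 and absolute log2 fold change over 0.58). The EGR genes lie above 0 at 96h and 144h in IL3-OHT, where Egr1 differs by 0.99 and 1.34, and Egr1 lies below 0 at 48h and 96h in GCSF-OHT.

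Single time points after each renewal of medium and OHT were then set against their neighbours 8 h before and after. At IL3-OHT 96h and 144h the 3 EGR genes were higher, where 9.34% and 8.58% of all genes were called higher, and neither NAB gene was called. *Egr1* had 8761, 8600 and 10400 at 96h, with a mean of 5030 ± 590 (SD, n = 3) at 88h and 4296 ± 166 at 104h (log2 difference from the neighbours 0.99, standard error 0.15, adjusted p = 1.08e-08). At 144h it had 9117, 8885 and 9047, with 3002 ± 401 at 136h and 4270 ± 282 at 152h (1.34, standard error 0.15, adjusted p = 1.72e-13). These 2 means are the highest of *Egr1* in the 56 combinations. The libraries of both groups lay above those of the groups before and after them, and the share of all genes with such a gap was not counted.

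*Egr2* differed from its neighbours by 1.33 at IL3-OHT 96h and 1.56 at 144h on the log2 scale (standard error 0.19 each, adjusted p = 7.46e-10 and 2.59e-12). *Egr3* had 14.6, 14.4 and 25.5 at 96h and 7.61, 13.0 and 11.04 at 144h, where its neighbours had 0 to 7.25 (log2 differences 2.85 and 2.71, standard error 0.49 each, adjusted p = 3.00e-07 and 1.15e-06). In reads this is 13 to 23 and 7 to 14 per library. At the first renewal no member was called at IL3-OHT 48h, where 1.6% of genes were, although *Egr3* was with edgeR (adjusted p = 0.0164), with DESeq2 (adjusted p = 0.00529) and at pseudocount 5 (adjusted p = 0.0104). *Nab2* was lower at IL3-OHT 96h by 0.48 on the log2 scale, under the fold threshold (-0.48, standard error 0.10, adjusted p = 3.67e-05).

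In GCSF *Egr1* moved down at the first 2 of these time points. It was lower than its neighbours at 48h (-0.86, standard error 0.15, adjusted p = 4.45e-05) and at 96h, where the 2 libraries had 416 and 375 and the mean was 1159 ± 187.1 (SD, n = 3) at 88h and 565 ± 129.02 at 104h (-1.01, standard error 0.18, adjusted p = 1.67e-06). The fall from 88h to 96h was called (-1.54, standard error 0.20, adjusted p = 4.79e-10), and the step from 96h to 104h was not (0.49, standard error 0.20, adjusted p = 0.0756). Replicate 3 of 104h, with 416 against 636 and 643, belongs to the replicate pair furthest apart across all genes in the series. At 48h and 96h, 0.19% and 3.54% of all genes were called lower (0.35% and 4.66% in either direction). At 144h *Egr1* was not called (0.15, standard error 0.16, adjusted p = 0.678). Only *Egr2* was called among the 5 at GCSF-OHT 144h, by 0.60 (standard error 0.20, adjusted p = 0.0281, 1.85% of genes called in either direction), a call lost without replicate 1 (adjusted p = 0.137) and without replicate 3 (0.32, adjusted p = 0.473), at pseudocount 5, with edgeR and in the fit of these libraries alone. The *Egr1* call at GCSF-OHT 48h was lost in the fit of its own libraries alone (adjusted p = 0.0845).

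The difference between the courses was tested itself, in comparisons chosen after the data were seen. Taken as GCSF-OHT minus IL3-OHT, the *Egr1* change against its neighbours differed by -1.20 at 48h (standard error 0.21, adjusted p = 2.50e-05), -2.004 at 96h (standard error 0.23, adjusted p = 3.04e-12) and -1.19 at 144h (standard error 0.22, adjusted p = 3.86e-06). At these 3 time points 1.6%, 7.76% and 9.67% of all genes were called. For *Egr2* and *Egr3* the difference passed at 96h and 144h and not at 48h, and for *Nab1* and *Nab2* at none of the 3. Without replicate 2 the *Egr2* difference lost its call at 96h (-1.06, adjusted p = 0.0525) and 144h (-0.75, adjusted p = 0.122), and without replicate 1 that of *Egr3* at 96h (-2.14, adjusted p = 0.198). The 120h libraries, which fall between renewals, carry another prefix in their library names than the rest. At IL3-OHT 120h *Egr1* had 7189, 7706 and 7310, with means of 3451 ± 195.7 at 112h and 3691 ± 294 at 128h (1.05, standard error 0.15, adjusted p = 7.14e-08), and *Egr2* differed by 0.74 (standard error 0.19, adjusted p = 0.00240), a call lost without replicate 2 (0.64, adjusted p = 0.0894), while *Egr3* was called there without replicate 3 (1.58, adjusted p = 0.0307). Here 0.902% of genes were called higher (1.7% in either direction). No member was called at GCSF-OHT 120h, where 2.01% of genes were, and *Egr1* there, at 0.54 (standard error 0.16, adjusted p = 0.00685), passed the fold threshold without replicate 1 (0.80) and with DESeq2 (0.59). *Nab2* at GCSF-OHT 96h (-0.52, standard error 0.12, adjusted p = 3.48e-04) did so without replicate 1 (-0.66) and without replicate 3 (-0.59).

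The end of the course brought another rise of *Egr1*. Between 160h and 168h it went from 4247 ± 257 (SD, n = 3) to 6401, 8116 and 7873 in IL3 (log2 fold change 0.81, standard error 0.18, adjusted p = 3.60e-04) and from 521 ± 183.5 to 1109, 1283 and 974 in GCSF (1.16, standard error 0.18, adjusted p = 2.88e-07), where 0.919% and 0.747% of genes were called higher. *Egr2* rose at that step in IL3 (0.76, standard error 0.22, adjusted p = 0.00904) and not in GCSF (-0.01, standard error 0.22, adjusted p = 1). Over 25 steps in IL3 and 27 in GCSF between consecutive time points, *Egr1* changed at 9 in each course, *Egr2* at 10 and 7, *Egr3* at 3 and 2, *Nab2* at 4 and 4 and *Nab1* at 1 and 0. The share of all genes called at a step ran from 0.0976% to 16% in IL3 and from 0.0115% to 6.05% in GCSF.

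*Egr3* fell in the IL3 course to levels at or near the floor. Against undifferentiated cells it was lower at 24 of 25 time points, all but 1h, where the share of all genes called lower ran from 1.61% to 20.7%. From 80h to 168h, leaving out 96h and 144h, its group means lay between 0 and 6.15, and all 3 libraries had no read at IL3-OHT 136h. Against the floor of the shallowest of those libraries *Egr3* was at least 197.7-fold lower than in undifferentiated cells. All libraries were at or under 3 reads in 4 IL3-OHT groups (112h, 120h, 128h and 136h) and 4 GCSF-OHT groups (96h, 104h, 136h and 144h), and 57 libraries in all had 3 reads or fewer. The fitted log2 fold change of *Egr3* over the late IL3 time points, -8.21, depends on the pseudocount and is no bound.

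**Figure D3:**
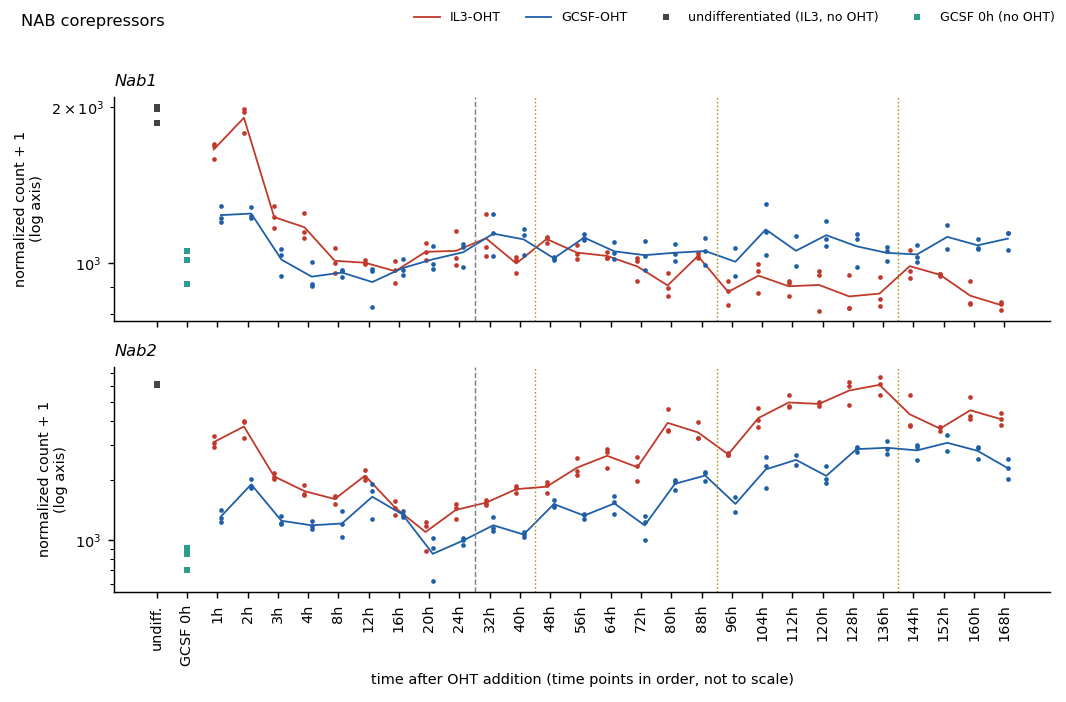
Normalized count plus 1 of Nab1 and Nab2 on log axes by time after OHT addition, drawn as for the EGR genes. Nab2 fell from 6087 in undifferentiated cells to 1094 at IL3-OHT 20h and reached 6068 at 136h, while in GCSF-OHT it rose from 821 before OHT to 3091 at 152h. Nab1 lay between 830 and 1905 in all groups after OHT.

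*Nab2* changed at 4 called steps in each course. In IL3 it fell to 1231, 881 and 1169 at 20h, its lowest point, and the 30 libraries from 80h to 168h without 96h and 144h held 3269 to 6638 (median 4461). Its mean of 6068 ± 624 (SD, n = 3) at 136h was 5.55 times that at 20h and lay beside the 6087 ± 60.3 of undifferentiated cells. In GCSF it went from 848 ± 210.8 at 20h to 3091 ± 391.98 at 152h (n = 2), 3.64 times as high. Over the late time points against the middle ones *Nab2* rose in both (log2 fold changes 1.31 and 0.99, standard error 0.04 each, adjusted p = 4.89e-61 and 9.72e-48), where 9.1% and 3.94% of genes were called higher (20.5% and 12.2% in either direction). A called step lay between 72h and 80h in both, from 2326 ± 324 to 3899.5 ± 583 in IL3 (0.74, standard error 0.12, adjusted p = 2.19e-07) and from 1182 ± 163.4 to 1918 ± 113 in GCSF (0.71, standard error 0.12, adjusted p = 2.66e-06), against 2.41% and 1.22% of all genes called higher. Besides the steps before 4h, *Nab2* fell from 16h to 20h in GCSF (-0.69, standard error 0.12, adjusted p = 2.82e-05) and from 136h to 152h in IL3, the libraries of 144h left out (-0.73, standard error 0.12, adjusted p = 7.91e-08).

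*Nab1* varied least of the 5 genes. Its highest mean was 2.29 times its lowest within IL3-OHT and 1.36 times within GCSF-OHT, and the median coefficient of variation between replicates was 5.27% and 5.48%. Against undifferentiated cells *Nab1* was lower at 23 of 25 IL3-OHT time points, all but 1h and 2h, and against GCSF 0h it was called at none of 27. At 168h it had 830 ± 15.1 (SD, n = 3) in IL3 and 1115 ± 47.9 in GCSF.

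Set against the start of its own course at each time point, *Egr1* was higher at 11 and lower at 6 of 25 time points in IL3, and higher at 19 and lower at 7 of 27 in GCSF. *Egr2* was higher at 11 and lower at 5 in IL3, and higher at 20 and lower at 1 in GCSF. *Nab2* was lower at 19 of 25 in IL3 and higher at 20 of 27 in GCSF. *Egr3* in GCSF was higher at 1h and 2h and lower at 104h and 144h. The share of all genes called higher at a single time point ran from 2.81% to 13.2% in IL3 and from 3.18% to 13.1% in GCSF, and the share called lower from 1.61% to 20.7% and from 1.89% to 14.1%.

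By 168h all 5 genes were called against the start in IL3 (25.4% of genes called in either direction), in mixed directions. *Egr1* (1.33) and *Egr2* (1.11) were higher there on the log2 scale, and *Egr3* (-6.79, on values near the floor), *Nab1* (-1.23) and *Nab2* lower. In GCSF 3 of the 5 were called (24.8% of genes), where *Egr1* had risen by 2.10, *Egr2* by 1.43 and *Nab2* by 1.49 on the log2 scale (standard errors 0.18, 0.22 and 0.12, adjusted p = 2.86e-20, 1.18e-08 and 5.60e-22). *Nab2* in IL3 was at the edge of the fold threshold (-0.58, standard error 0.12, adjusted p = 1.20e-05) and lost its call at pseudocount 5, with upper-quartile scaling, without replicate 2 (-0.53), with edgeR and with DESeq2. Over the late time points (80h to 168h) together, *Egr1* was higher than at the start in both courses, by 0.66 in IL3 (standard error 0.13, adjusted p = 5.74e-06) and 1.39 in GCSF (standard error 0.13, adjusted p = 1.46e-17), where 31.2% and 23.7% of genes were called. Against the middle time points *Egr1* was higher by 0.97 and 0.90, but against 32h to 72h alone the sign turned in both courses, to -0.28 and -0.32.

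Whether the course of a gene after OHT differed between the cytokines was tested as an interaction, the change from the start in GCSF minus that in IL3. *Nab2* differed by 2.11 over the early time points from 1h to 8h, 2.36 over the middle ones and 2.04 over the late ones (standard error 0.13, 0.12 and 0.12, adjusted p = 7.69e-29, 5.48e-35 and 5.70e-30). Its change from the start was -1.39, -1.77 and -0.45 in IL3, the last under the fold threshold, and 0.72, 0.59 and 1.59 in GCSF, where the middle value fell under the threshold without replicate 3 (0.52). The 2 courses began at levels 2.90 apart on this scale, and the GCSF level stayed below that of IL3 in all 3 windows. *Nab1* differed by 0.63, 0.98 and 1.24, and *Egr3*, with its values near the floor, by 4.67, 5.39 and 7.30.

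For *Egr1* the interaction was called over the middle time points (0.80, standard error 0.19, adjusted p = 1.22e-04) and the late ones (0.73, standard error 0.19, adjusted p = 4.52e-04), and for *Egr2* over the early (1.01, standard error 0.24, adjusted p = 3.48e-04) and the late ones (0.81, standard error 0.23, adjusted p = 0.00181, and 0.60 with adjusted p = 0.0725 without replicate 3). In all, 4 members were called in the early, 4 in the middle and 5 in the late window, all toward GCSF, where 10%, 25.2% and 26.4% of all genes were called in either direction. The share of all genes called toward GCSF alone is not given here. *Egr3* had 5 to 7 reads per library at GCSF 0h. A fall in GCSF as large as that in IL3 could not have been measured, so the direction of its interaction was set by the low start. Over the early time points alone, 3 members were called against the start in IL3 (12.4% of genes) and 3 in GCSF (4.09%). The GCSF early calls of *Egr1* (-0.79) and *Egr3* (1.22) were each lost without replicate 1 (-0.55 and 1.28, the latter with adjusted p = 0.146), and that of *Egr3* also without replicate 2 (1.05, adjusted p = 0.220), at pseudocount 0.5 and with no filter. These early averages also mix unlike levels. Against GCSF 0h, *Egr1* differed by 1.56 at 1h and -1.74 at 8h, and *Egr3* by 4.30 and -0.62, the last not called.

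**Figure D4:**
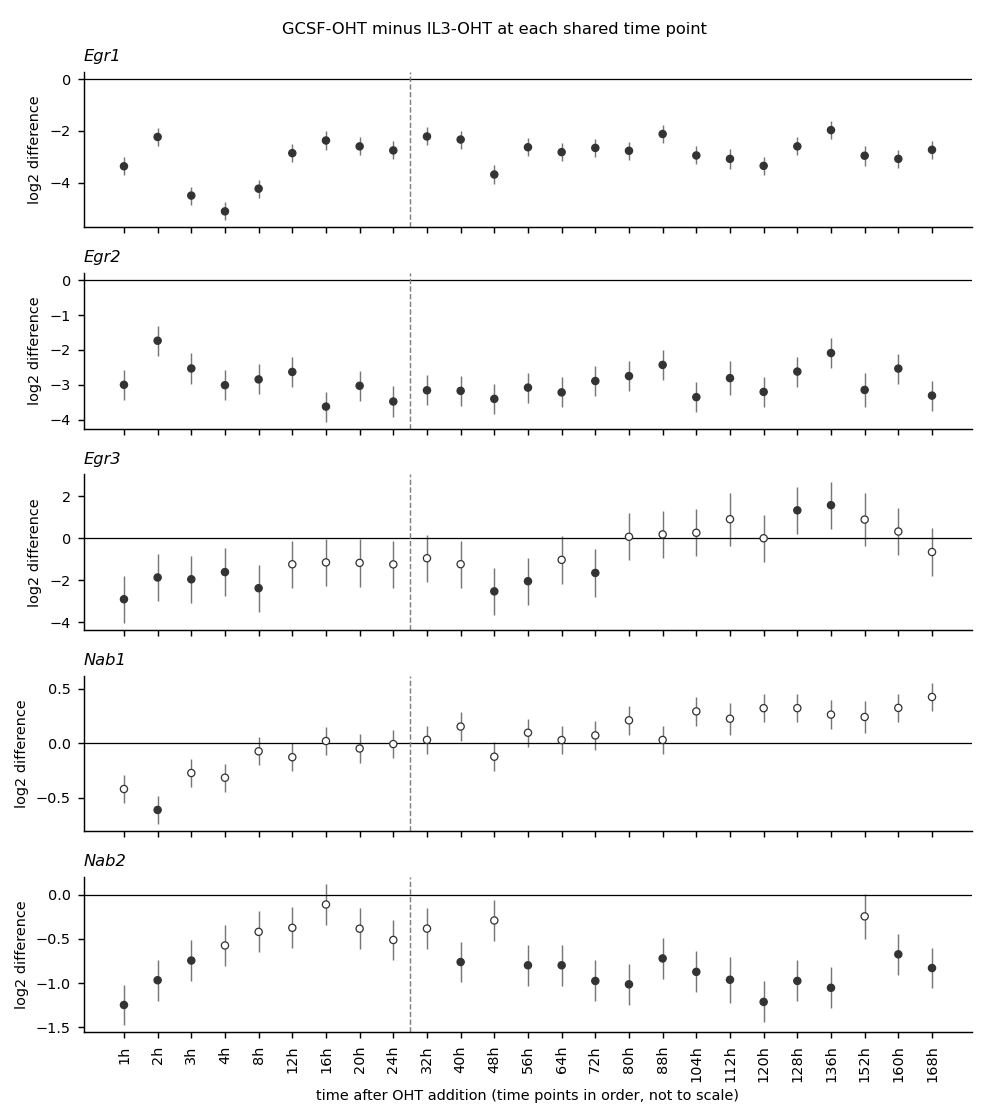
Difference in log2 level between GCSF-OHT and IL3-OHT (GCSF minus IL3) of each of the 5 genes at the 25 shared time points, with 95% intervals. Filled points passed the test. Egr1 and Egr2 lie below 0 and are filled at all 25 time points, Nab2 at 16, and Nab1 at 1.

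At equal times after OHT, *Egr1* and *Egr2* were lower in GCSF-OHT than in IL3-OHT at all 25 shared time points, where 1.44% of all genes were lower at all 25. All libraries of IL3-OHT also lay above all of GCSF-OHT at each of these time points for both genes, which held for 3.55% of genes. The fold between the *Egr1* means ran from 3.93 at 136h to 34.8 at 4h, and that of *Egr2* was lowest at 2h, with 3.46. Averaged over the 25 time points, 4 of the 5 members were lower in GCSF (15.1% of genes lower, 24.5% called in either direction), and at 168h alone 3 were, where 28.1% of genes were called.

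*Nab2* was lower in GCSF at 16 of 25 time points, and its libraries did not overlap at 23, all but 16h and 20h (6.78% of genes had as many). *Egr3* was lower in GCSF at 8 time points, from 1h to 8h and at 48h, 56h and 72h, and was called higher at 128h and 136h, where IL3-OHT was at or under 3 reads, as GCSF-OHT also was at 136h, so that this last pair cannot be told from 0. Its libraries lay apart with IL3 above at 12 time points and with GCSF above at 1, against 24.6% and 67.4% of genes. Its averaged difference of -0.81 (standard error 0.12, adjusted p = 4.75e-10) was -1.73 up to 24h and -0.29 from 32h on, the last with no call (adjusted p = 0.0649). *Nab1* was called at 2h alone, lay apart with IL3 above at 6 time points and with GCSF above at 11 (41.5% and 25.2% of genes), and had an averaged difference of 0.04 (standard error 0.01).

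Ordered by mean over the 56 combinations of condition and time point, *Egr1* ran from IL3-OHT 96h, 144h and 1h at the top to GCSF-OHT 4h and 8h at the bottom. *Egr2* ran from IL3-OHT 96h, 144h and 48h to GCSF-OHT 3h and 4h, and *Egr3* from IL3-OHT 1h and undifferentiated cells to IL3-OHT 128h and 136h. *Nab1* was highest in undifferentiated cells, then at IL3-OHT 2h and 1h, and lowest at IL3-OHT 168h, while *Nab2* was highest in undifferentiated cells and at IL3-OHT 136h and lowest at GCSF 0h. The ranges of neighbours in this order overlapped in 43 of 55 pairs for *Egr1*, 50 for *Egr2*, 51 for *Egr3*, 53 for *Nab1* and 53 for *Nab2*. The order was made from these same means, so such overlap is no test and shows only that places in the order are not exact.

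The other genes of the pathway were described from lists of known members. *Chd3*, *Plau*, *Phlda1* and *Cdkn1a* were named by a rule that took list genes with the largest called differences between the cytokines. Their values in that comparison are therefore no independent result. Apart from *Gfi1*, the other genes named from the lists were chosen after their values were seen. Of 16 genes of the ERK and SRF arm, which carries receptor signals to the EGR promoters, none passed the test at 1h in either course or between 24h and 32h, the times at which *Egr1* and *Egr2* rose. Of 17414 genes tested, 770 in IL3 and 1053 in GCSF passed at 1h, and 62 and 30 passed at the later step. With so few genes called, a count of none in 16 is near that of genes at large. Before OHT, 4 of the 16 were lower in GCSF, with log2 fold changes of -0.89 for *Srf*, -0.78 for the SRF partner *Elk4*, -0.82 for the kinase *Map2k1* and -0.63 for *Nras* (median of the list -0.17, of all genes tested -0.09), beside 20.7% of all genes called lower. None of the 16 passed in the comparison of the cytokines over shared time points, where 4262 of 17414 genes did.

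Of 11 genes of CHD4 and the NuRD complex, through which NAB proteins repress, 2 were higher at GCSF 0h, *Chd3* by 1.03 and *Mbd3* by 0.58, beside 13% of all genes called higher. None passed at 1h or at 32h, where the counts of all genes called are those given for the ERK and SRF arm. *Chd3* alone was also higher in GCSF-OHT over shared time points (0.93, standard error 0.01, adjusted p = 5.48e-88), where 4262 of 17414 genes were called in either direction. The median of the list before OHT was 0.30.

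Of 18 genes known as EGR targets, 17 were tested. At GCSF 0h 8 were lower and 2 higher (median -0.66), beside 20.7% and 13% of all genes, among the lower ones the nuclear receptor *Nr4a1* (-3.88), *Phlda1* (-2.74) and the matrix protein gene *Thbs1* (-1.73). At 1h *Phlda1* was higher in IL3 (1.07), and *Nr4a1* (2.31), *Phlda1* (1.76) and *Thbs1* (0.67) in GCSF, where 770 and 1053 of 17414 genes were called in either direction. At the step from 24h to 32h *Nr4a1* (1.38) and *Phlda1* (0.63) rose in IL3 and none of the 17 in GCSF, where 62 and 30 of all genes were called in either direction. Over shared time points 5 were lower and 1 higher in GCSF, beside 15.1% and 9.34% of all genes, led by the protease *Plau* (-1.94), *Phlda1* (-1.89) and the cell cycle inhibitor *Cdkn1a* (-0.93), with a list median of -0.25 against -0.06 for all genes.

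*Gfi1*, set against the EGR factors in myeloid cells, fell in the first hour in both courses (log2 fold changes -0.67 in IL3 and -0.96 in GCSF, standard error 0.06 each, adjusted p = 9.77e-18 and 1.96e-28). It was higher in GCSF-OHT over shared time points by 1.09 (standard error 0.01, adjusted p = 5.04e-105). At 168h its means were 2718 ± 234 (SD, n = 3) in IL3 and 3170 ± 51.5 in GCSF. Against the start of its course *Gfi1* was then called higher in IL3 (log2 fold change 1.39) and lower in GCSF (-1.52). In these comparisons 4423 and 4310 of 17414 genes were called in either direction, and *Egr1* and *Egr2* were called higher in both courses. *Egr4*, the remaining EGR gene, had at most 5 reads in a library, so that no fold is given, and *Gfi1b* had at most 4 and was not tested.

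The genes whose pattern was most like that of each member were ranked by Pearson's r of log2 means over 54 combinations and 12296 genes, a description of time courses that share libraries. Those most like *Egr1* were *Egr2* (0.917), the MAP kinase phosphatase *Dusp1* (0.912) and the cytokine *Osm* (0.867). Those most like *Egr2* were *Egr1*, the ERK phosphatase *Dusp6* (0.916) and *Socs1* (0.902), an inhibitor of cytokine signals. For *Egr3* they were *Trib1* (0.916), *Apol8* (0.898) and *Slc26a10* (0.891), for *Nab1* *Lrrc73* (0.840), *Phldb2* (0.838) and *Sgk1* (0.834), and for *Nab2* *Grina* (0.932), *Hcar2* (0.916) and *Pou6f1* (0.912). Of these 15 places, 6 went to genes that were also among the 3 most alike of the same member on the untransformed scale.

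Among the members themselves, *Egr1* and *Egr2* followed each other within the IL3 course (r = 0.716 over 26 combinations) and within the GCSF course (0.905 over 28). *Egr3* had an r of 0.775 with *Nab1* over all 54 and of 0.175 with *Egr1*. *Nab2* had an r of 0.631 with *Egr1* and 0.529 with *Egr2*, of 0.452 and 0.0811 within the IL3 course and of 0.420 and 0.337 within the GCSF course. *Nab1* and *Nab2* had an r of 0.0306.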

How the data were processed

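PolyA RNA of PUER cells was sequenced at 56 combinations of condition and time point, 53 with 3 libraries and 3 with 2. The authors quantified reads with Salmon against GRCm38 (mm10) and deposited DESeq2-normalized counts, used here as a signal value: the reads of a gene divided by the size factor of its library. Tool versions and the use of strand are not given in the sources used here. Whole reads were recovered for 100% of nonzero values (tolerance 1e-06), which gave each library's depth. No column of another series was present (0 columns).

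Groups came from the sample labels, whose replicates the study calls biological. Separate runs of the differentiation are not described in the sources used here. The p-values, also those of averages over many time points, measure the spread between replicate libraries and not that between runs. The titles of the GCSF 0h libraries name OHT, while their treatment text places them before OHT. Values were tested as log2(normalized count + 1) with limma 3.58.1 (R 4.3.3), 1 mean per combination with moderated variances, on the 17414 genes whose normalized count reached 5 or more in 1 or more libraries of the fit, which left out IL3-OHT 96h and 144h except where these were compared with their neighbours. Fold changes on this scale understate the change of low genes. Benjamini-Hochberg adjustment ran over all genes tested, and a call needed both an adjusted p under 0.05 and a log2 fold change above 0.58 in size. The test was checked on simulated data.

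Alternatives were the pseudocounts 0.5 and 5, other filters, upper-quartile scaling, leaving out replicates, a replicate block, fits of single groups, edgeR 4.0.16 and DESeq2 1.42.0 on the recovered reads, and, chosen after seeing the data, parts of the time course. The rule for named genes took the 5 members, *Gfi1*, the 3 list genes with the largest called difference between cytokines, and the 3 genes most like each member. Members, lists and comparisons were chosen with earlier results of these data known. Promoters came from RefSeq (GRCm38.p6), gene positions from the GRCm38 annotation.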

Additional observations from a re-analysis of the deposited data

Results flagged for a closer look

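The results in which IL3-OHT and GCSF-OHT differed in their change by a test of the difference itself (limma, adjusted over all genes tested) are collected here. For the change from the start of each course, GCSF minus IL3 on the log2 scale, *Nab2* differed by 2.11 in the early, 2.36 in the middle and 2.04 in the late window, *Nab1* by 0.63, 0.98 and 1.24, and *Egr3* by 4.67, 5.39 and 7.30, fitted values that depend on the pseudocount and are no bound, since *Egr3* had 5 to 7 reads per library at GCSF 0h and few or none in late libraries. *Egr2* differed by 1.01 in the early and 0.81 in the late window, and *Egr1* by 0.80 in the middle and 0.73 in the late window. For *Egr3* a fall in GCSF as large as that in IL3 could not have been measured. The GCSF start lay below the IL3 start for all 5 genes, and since the OHT dose also differed, cytokine and dose cannot be told apart.

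At single time points against their neighbours, the *Egr1* difference was -1.20 at 48h, -2.004 at 96h and -1.19 at 144h. That of *Egr2* was -1.09 at 96h and -0.95 at 144h, and that of *Egr3*, on 0 to 23 reads per library, -2.93 at 96h and -4.01 at 144h. The IL3-OHT 96h and 144h libraries stood apart across many genes, and each time point had its own plate.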

How the results depend on the processing

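Of 367 alternative counts of called members, 345 stayed within 1.5 times the count reported and 22 did not. Without 1 replicate at a time, the number of members called ran from 1 to 3 for GCSF-OHT early against start (3 reported), 1 to 3 for GCSF-OHT middle against start (2), 1 to 2 for GCSF-OHT 96h (1), 0 to 1 for GCSF-OHT 144h (1), 0 to 1 for GCSF-OHT 120h (0) and 1 to 3 for IL3-OHT 120h (2) against neighbours. IL3-OHT 48h went from 0 to 1 at pseudocount 5, with edgeR and with DESeq2, GCSF-OHT 144h from 1 to 0 at pseudocount 5, with edgeR and with only the groups compared, GCSF-OHT 120h from 0 to 1 with DESeq2, and GCSF-OHT middle against start from 2 to 1 with upper-quartile scaling. With only the groups compared, both steps from 24h to 32h went from 2 to 1 and GCSF-OHT 48h from 1 to 0. With parts of the time course, chosen after seeing the data, IL3-OHT middle against start went from 3 to 5 over 32h to 72h, GCSF-OHT middle against start from 2 to 1 over 12h to 24h, and GCSF-OHT late against middle from 2 to 1 with a middle window of 32h to 72h. *Egr1* reversed to -0.28 in IL3 and -0.32 in GCSF for late against middle with that window, to -1.35 in GCSF over 12h to 24h and to 0.94 in IL3 over 32h to 72h against start. These follow from the step between 24h and 32h, which the split separates; the other causes were not tested. The count of all genes called also moved. At the steps from 24h to 32h it went from 62 in IL3 to 1.63 times as many with no filter, 95 with DESeq2, 36 without replicate 1 and 33 with only the groups compared, from 30 in GCSF to 55 with no filter, 16 without replicate 1 and 13 with only the groups compared, and for the difference between the courses from 9 to 15 with no filter, 17 with DESeq2 and 2 to 5 without 1 replicate. At single time points it went from 279 to 113 at IL3-OHT 48h without replicate 2 (94 for the difference between the courses), from 61 to 23 and 40 at GCSF-OHT 48h without replicate 1 and 3, from 811 to 426 without replicate 2 and 516 with only the groups compared at GCSF-OHT 96h, and from 322 to 134 with only the groups compared at GCSF-OHT 144h, where it was 0.54 times as large without replicate 1. At IL3-OHT 120h it went from 296 to 168 with only the groups compared and was at most 0.66 times as large without replicate 1 or 2 and with DESeq2, and at GCSF-OHT 120h it went from 350 to 222 without replicate 2, 233 with only the groups compared and 210 with DESeq2. For GCSF-OHT late against middle it went from 2118 to 1222 at pseudocount 5 and 1315 with a minimum mean normalized count of 10.

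The replicate numbers did not pair the libraries (same-numbered deviations correlated over 0.1 in 1 of 73 pairs between the courses). The replicate block left the count of called members within 1.5 times in all 28 comparisons (0 to 5 called) and added a call only for *Egr3* in GCSF-OHT late against start (-0.94, adjusted p = 0.0485). Depth limits *Egr3* at GCSF 0h and from 3h on in GCSF (at most 23 reads per library), and in IL3 most of all from 80h on.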
